A study of Homo sapiens with 64 samples.

Results

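The transcripts of 9 genes of the neuropilin, semaphorin and plexin family were followed in colorectal cancer spheroids. The genes were the neuropilins NRP1 and NRP2, the class 3 semaphorins SEMA3A, SEMA3C and SEMA3F, and the plexins PLXNA1, PLXNA2, PLXNB1 and PLXND1, which are 9 of the 54127 genes listed in the count data. They were taken by symbol, and the selection was made with earlier results of these data known, namely the differences between label-retaining and cycling cells in each line and the differences with time and dye in the controls. Values of the 9 genes in those comparisons are therefore given as a description. A gene is called where its Benjamini-Hochberg adjusted p in edgeR's quasi-likelihood fit of all tested genes is under 0.05, and nothing is read from how many of the 9 genes are called.

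Class 3 semaphorins are secreted proteins that were first known for turning away growing axons. They bind neuropilins, which are single-pass receptors with a short cytoplasmic tail, and the neuropilins hand the signal to plexins, whose cytoplasmic part inactivates small GTPases of the Ras and Rap families and so loosens integrin adhesion and the actin skeleton. Neuropilins also bind vascular endothelial growth factors, and some plexins take ligands without a neuropilin, as PLXNB1 does with SEMA4D and PLXND1 does with SEMA3E. In epithelial tumors, members of the family have been described as affecting migration, vessel growth and survival, in either direction depending on the member.

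The 64 RNA sequencing libraries came from 6 colorectal cancer cell lines grown as nonadherent spheroids with bFGF and EGF. The question was how cells that have nearly stopped dividing differ from cycling cells of the same culture. Cells were stained with CFSE, which each division dilutes among the daughter cells, and on day 6 they were sorted into label-retaining cells (LRCs, bright in CFSE) and non-LRCs (the cycling bulk). There were 48 sorted libraries, with 4 replicates of each population from HT55 and SW948 (subtype CCS1), RKO and SW48 (CCS2), and DLD1 and HCT15 (CCS3). All 48 had therefore been exposed to CFSE, spheroid culture and sorting. The other 16 libraries were unsorted controls labeled DLD1, with 4 replicates each of CFSE-stained and unstained cells on day 1 and on a later day that the sample labels give as 5 and the study design as 6. The later group is called d5 here, as in its labels. DLD1 and HCT15 are known as lines from the same patient's tumor. Nonadherent spheroids hold no stroma or vessels, so any ligand made by such cells was outside this model.

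Reads assigned to genes numbered 12237225 to 20913455 per library (median 15063858). Levels are given in CPM, counts per 1000000 reads on genes, with the library sizes scaled by TMM normalization. EPCAM, KRT8, KRT18 and CDX2, which mark intestinal epithelium, were at 1 CPM or more in all 64 libraries. The other epithelial markers listed were at that level in fewer libraries, CDH1 in 61, VIL1 in 56 and KRT20 in 39. Of the markers of other cell types, KDR and CDH5 of endothelium had at most 1 read in any library, and CD3E of T cells had none. COL1A2 of fibroblasts and RBFOX3 and SNAP25 of neurons had at most 6 reads. Others reached higher levels, VWF of endothelium 3.59 CPM, COL1A1 and PDGFRB of fibroblasts 12.9 and 8.42, PTPRC of leukocytes 22.3 and SYP of neurons 3.91. CD68, a lysosomal protein used as a macrophage marker, ranged from 1.56 to 1620 CPM and rose in LRCs across the lines (log2 fold change 0.77, SE 0.14, adjusted p = 4.22e-05). The summed leukocyte markers ranged from 1.56 to 1140 CPM in non-LRCs and from 3.86 to 1620 CPM in LRCs, nearly all of it CD68. The mitochondrial share of reads was 5.31% to 14.2% in LRCs, with a median of 7.67%, and 4.44% to 11.3% in non-LRCs, with a median of 6.71%. LRCs lay above non-LRCs without overlap in RKO (medians 9.67% and 5.27%) and in SW48 (13.8% to 14.2% against 9.66% to 11.3%). The part of these in the results below was not tested. In bulk samples, fewer cells of a kind and less RNA per cell cannot be told apart.

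The control libraries went against their label. Each of the 16 libraries labeled DLD1 correlated more with the mean of HCT15 non-LRCs than with that of DLD1 non-LRCs. Pearson's r over 16899 genes was from 0.9449 to 0.9926 with HCT15 and from 0.9153 to 0.9554 with DLD1. Sorted libraries were compared otherwise, by the nearest single library among the sorted ones, which could be a replicate of the same group. By that measure each of the 48 was nearest to its own line. Among all 64 libraries, each of the 16 controls was nearest to another control, which does not tell its line. The library labeled unlabeled d1 replicate 4 was nearest to unlabeled d5 replicate 3 (r = 0.9932), not to the other libraries of its own group. Unlabeled d5 replicates 3 and 4 were in turn nearest to it, and unlabeled d5 replicate 2 was nearest to CFSE d5 replicate 4 (r = 0.9904). Control results are therefore given for the libraries as labeled. Calls that change without unlabeled d1 replicate 4 are given too. Among the sorted libraries, replicate 2 of HT55 was the lowest of 4 in both populations for NRP1, SEMA3A and PLXND1 and the highest for NRP2 and SEMA3C, and replicates 1 and 2 of HCT15 lay apart from replicates 3 and 4 for several of the genes.

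To place the genes, GRCh37 coordinates from GENCODE release 44 were used. NRP1 (ENSG00000099250) lies on chromosome 10 from 33466420 to 33625190 on the minus strand, and NRP2 (ENSG00000118257) on chromosome 2 from 206546714 to 206662857 on the plus strand. SEMA3A (ENSG00000075213) and SEMA3C (ENSG00000075223) both lie on the minus strand of chromosome 7, from 83585093 to 84122040 and from 80371854 to 80551675. Chromosome 3 holds SEMA3F (ENSG00000001617, 50192478 to 50226508, plus strand), PLXNA1 (ENSG00000114554, 126701536 to 126756232, plus), PLXNB1 (ENSG00000164050, 48445261 to 48471495, minus) and PLXND1 (ENSG00000004399, 129274057 to 129325519, minus). PLXNA2 (ENSG00000076356) lies on chromosome 1 from 208195587 to 208417729 on the minus strand. Values are counts over all exons of a gene. Antisense genes overlap 4.87% of the exon bases of NRP1, 1.06% of NRP2 and 2.28% of SEMA3F (SEMA3F-AS1), and since no source used here says that strand was used in counting, reads there cannot be told apart. The other 6 genes overlap no annotated exon of another gene.

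RefSeq start regions (GRCh38.p14, 250 bases before to 50 after a start) were at hand for 7 of the 9 genes, in 11 windows, and not for NRP1 and SEMA3A. They were read for 3 motifs on both strands. The GLI site GACCACCCA, to which the transcription factors of hedgehog signaling bind, was looked for because the study followed hedgehog genes. The E-box CACGTG and the GC box GGGCGG were looked for as well, of which only the GC box is common over all windows. None of the 11 windows held the letters of the GLI site, which 0.236% of all 35116 windows hold, and none held the E-box, which 7.26% hold. A GC box was in 9 of the 11 windows, against 45% of all windows. The windows were from 36.0% to 87.3% G and C, against a median of 58.7% over all windows. Shown here are the windows of NRP2, PLXNA1 and PLXNA2, the genes that were called in RKO LRCs and had a single window, with GC boxes of either strand in capitals.
NRP2, chr2:205682251-205682550, plus strand: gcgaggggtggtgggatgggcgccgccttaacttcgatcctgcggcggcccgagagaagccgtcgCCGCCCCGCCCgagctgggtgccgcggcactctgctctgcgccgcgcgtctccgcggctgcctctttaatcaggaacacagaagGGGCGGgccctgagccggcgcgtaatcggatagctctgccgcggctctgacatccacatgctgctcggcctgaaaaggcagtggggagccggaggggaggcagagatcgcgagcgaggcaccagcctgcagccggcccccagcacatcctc
PLXNA1, chr3:126982865-126983164, plus strand: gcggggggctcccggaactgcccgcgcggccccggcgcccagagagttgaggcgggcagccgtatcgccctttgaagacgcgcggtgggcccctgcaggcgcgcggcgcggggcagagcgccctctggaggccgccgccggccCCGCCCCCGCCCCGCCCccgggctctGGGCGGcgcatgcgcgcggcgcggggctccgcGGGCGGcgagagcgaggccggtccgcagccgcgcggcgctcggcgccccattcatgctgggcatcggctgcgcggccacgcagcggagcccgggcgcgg
PLXNA2, chr1:208244335-208244634, minus strand: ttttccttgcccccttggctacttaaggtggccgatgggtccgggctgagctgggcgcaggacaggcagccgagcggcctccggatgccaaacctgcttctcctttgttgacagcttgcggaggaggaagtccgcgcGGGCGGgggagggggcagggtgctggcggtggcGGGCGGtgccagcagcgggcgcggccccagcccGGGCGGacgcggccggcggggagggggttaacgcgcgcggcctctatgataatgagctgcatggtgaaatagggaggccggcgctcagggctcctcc
The NRP2 and PLXNA2 windows held 3 GC boxes each, at 70.0% and 70.3% G and C. The PLXNA1 window held 5, at 83.0%. A match is a description of letters and not of a binding site.

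The lines differed in how much of each neuropilin they expressed, a comparison that the choice of genes did not use. On a scale of reads scaled to exon length and library size (RPKM), NRP1 in non-LRCs was 5.84 ± 0.47 for RKO (SD, n = 4), 5.39 ± 1.78 for HCT15, 2.98 ± 0.80 for HT55, 1.91 ± 0.28 for DLD1, 0.0951 ± 0.0089 for SW948 and 0.0102 ± 0.0099 for SW48. NRP2 on the same scale was 4.22 ± 1.22 for HT55, 1.46 ± 0.09 for DLD1, 0.71 ± 0.07 for SW948, 0.31 ± 0.17 for HCT15, 0.30 ± 0.04 for SW48 and 0.088 ± 0.033 for RKO. RKO was thus highest of the 6 lines in NRP1 and lowest in NRP2, and the means of HT55, SW948 and SW48 were higher for NRP2 than for NRP1. Lengths were those of all annotated exons, 11522 bases for NRP1 and 13896 for NRP2, and not of the transcripts expressed. The order of the 2 genes within a line depends on these lengths, most of all where their means are close, as in HT55 and DLD1. For NRP1, RKO overlapped HCT15 and HT55 overlapped DLD1, and for NRP2, HCT15 overlapped SW48. The other neighbors in either order did not overlap. Across the 6 lines, non-LRC levels differed for NRP1 (edgeR F test, adjusted p = 1.75e-18) and NRP2 (adjusted p = 3.13e-16). All 9 genes differed between lines in this test, as did 98.3% of the 15779 genes tested.

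The ligands and plexins had smaller ranges between lines, with some exceptions. SEMA3A, the founding class 3 ligand, was at 15.3 ± 2.2 RPKM in RKO non-LRCs and at 2.14 to 3.29 in the means of the other 5 lines, which overlapped between all neighbors in their order. SEMA3C, a ligand that binds both neuropilins, was highest in SW948 (14.4 ± 0.7) and lowest in SW48 (2.95 ± 0.29). SEMA3F, a ligand that prefers NRP2, was highest in HT55 (26.5 ± 2.9) and lowest in RKO (2.37 ± 0.18), the line with the least NRP2. Fold differences between the highest and lowest line means were 7.14 for SEMA3A, 4.89 for SEMA3C and 11.2 for SEMA3F, against 572 for NRP1 and 48 for NRP2. The NRP1 ratio rests on SW48 non-LRCs, where 0, 4, 2 and 1 reads were counted.

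PLXNA1, a partner of neuropilins for class 3 semaphorins, was the most even of the 9 genes. Its means ran from 9.61 ± 0.75 RPKM in HCT15 to 21.7 ± 1.9 in SW48, a ratio of 2.26, and only SW48 stood clear of its neighbor. PLXNA2, which also pairs with neuropilins, ran from 0.125 ± 0.029 in SW48 to 6.15 ± 0.35 in SW948, a ratio of 49.4, and no neighbors in its order overlapped. PLXNB1, the receptor of SEMA4D, was highest in HT55 (22.4 ± 2.3) and lowest in RKO (2.76 ± 0.23), again with no overlap between neighbors. PLXND1, the receptor of SEMA3E, was also highest in HT55 (18.0 ± 5.7) and was lowest in DLD1 (3.16 ± 0.35). The adjusted p for a difference between lines was at most 1.05e-09 for these 7 ligands and plexins, the largest being that of SEMA3A.

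**Figure D1:**
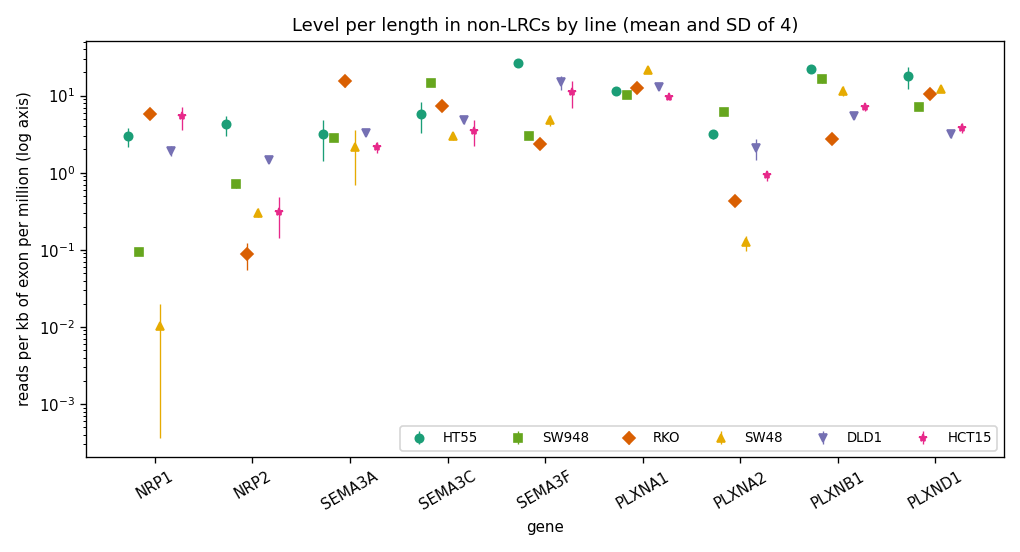
Mean level in non-LRCs, in RPKM on a log axis, of each of the 9 genes in the 6 lines, with bars for the SD of 4 replicates. NRP1, NRP2 and PLXNA2 spread over the widest ranges, with SW48 lowest for NRP1 and PLXNA2 and RKO lowest for NRP2, while PLXNA1 lies between 9.61 and 21.7 in every line.

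Of the 9 genes, NRP1 showed the clearest difference between LRCs and non-LRCs. Across the 6 lines it was higher in LRCs by a log2 fold change of 0.75 (SE 0.15, n = 24 against 24 libraries). The units of that fit were libraries, so the SE does not measure how the difference varied between lines, here or for other genes across the lines. NRP1 was higher in 21 of 24 pairs of libraries with the same line and number. These include SW48, with at most 7 reads per library, and RKO and SW948, where the numbers did not pair samples. NRP1 was 1 of 9 genes called in the comparison across lines, in which 22.9% of the 16603 genes tested were called. The size of the difference was unlike between the lines.

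In RKO non-LRCs, NRP1 was at 74.4, 65.1, 61.6 and 68.3 CPM, and in RKO LRCs at 273, 225, 240 and 254 CPM. Every LRC library lay above every non-LRC library, and the log2 fold change was 1.86 (SE 0.08). SW948 expressed far less, at 1.08, 1.13, 0.965 and 1.21 CPM in non-LRCs and 3.11, 3.52, 4.44 and 1.28 CPM in LRCs. The populations did not overlap there either, but replicate 4 of the LRCs lay close to the non-LRCs, and the log2 fold change of 1.49 (SE 0.34) was not called. Without replicate 4 it was 1.82 and called. These SW948 values are from 15 to 72 reads per library, so counting error is part of their spread.

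In DLD1, NRP1 went from 23.3, 25.8, 18.4 and 20.5 CPM in non-LRCs to 30.2, 33.2, 29.7 and 29.4 CPM in LRCs, with no overlap and a log2 fold change of 0.49 (SE 0.10) that was called. The call was lost without replicate 1 or 4, with values between 0.42 and 0.53 over all alternatives. In HCT15 it was at 77.3, 82.3, 43.0 and 46.0 CPM in non-LRCs and 116, 111, 51.7 and 47.1 CPM in LRCs. Replicates 1 and 2 were the higher in both HCT15 populations, each LRC library lay above the non-LRC library of its number, and the log2 fold change was 0.40 (SE 0.32), not called. In HT55, values of 41.1, 20.9, 35.7 and 39.8 CPM in non-LRCs and 35.9, 22.9, 33.4 and 38.0 CPM in LRCs overlapped throughout (log2 fold change -0.08, SE 0.20). SW48 had 0, 4, 2 and 1 reads in non-LRCs and 5, 7, 5 and 7 in LRCs, too few to be tested, so 8 of the 9 genes were tested in that line.

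NRP2 was higher in LRCs of RKO, where its level was lowest. RKO non-LRCs were at 0.834, 1.10, 1.89 and 1.06 CPM and LRCs at 3.13, 3.85, 2.39 and 3.90 CPM, from 11 to 24 and from 29 to 72 reads per library. The populations did not overlap, and the log2 fold change of 1.45 (SE 0.26) was called. In SW48, non-LRCs were at 3.53, 4.86, 4.37 and 4.12 CPM and LRCs at 5.47, 6.40, 5.49 and 5.13 CPM, again with no overlap, with a log2 fold change of 0.41 (SE 0.16) that was not called. NRP2 overlapped between the populations in HT55, SW948, DLD1 and HCT15, with log2 fold changes from -0.16 to 0.22, and none was called. Across the 6 lines its log2 fold change was 0.27 (SE 0.12), with 18 of 24 pairs higher in LRCs, and it was not called. With the replicate number as a block it was called (0.27, SE 0.09), in a fit that called 25.5% of genes, and DESeq2 called it as well.

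**Figure D2:**
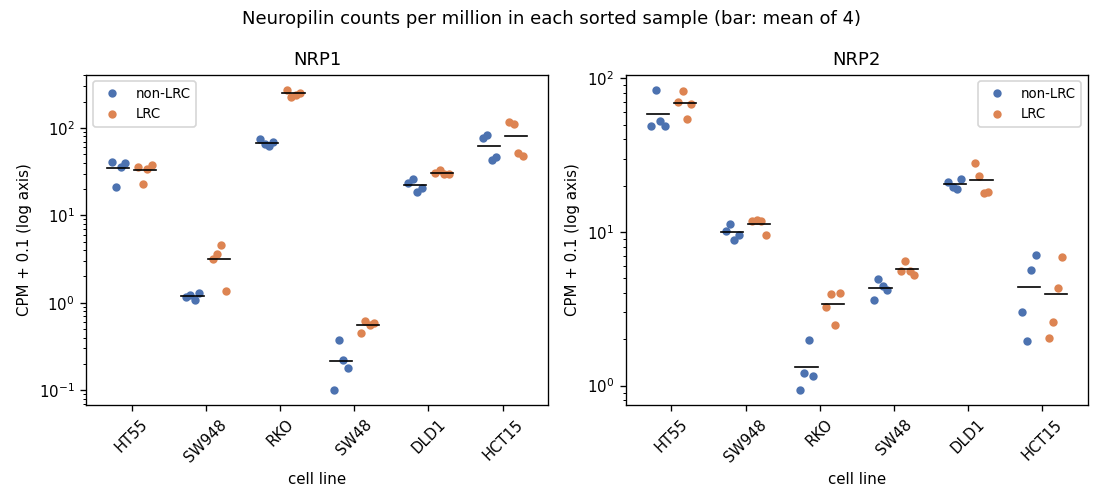
NRP1 and NRP2 in each of the 48 sorted libraries, in CPM with 0.1 added, on log axes, with bars for the mean of 4 replicates. NRP1 in RKO lies at 61.6 to 74.4 CPM in non-LRCs and at 225 to 273 CPM in LRCs, and NRP2 in RKO at 0.834 to 1.89 and 2.39 to 3.90 CPM, whereas both populations of HT55 overlap for both genes.

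Among the ligands, SEMA3C rose in SW48 LRCs. It was at 16.9, 20.6, 17.8 and 16.7 CPM in non-LRCs and at 27.8, 29.7, 34.0 and 32.5 CPM in LRCs, without overlap (log2 fold change 0.78, SE 0.11). It was 1 of the 8 genes tested that were called in SW48, where 0.796% of 13196 genes were called, and the call was lost without replicate 1, 3 or 4, although the log2 fold change stayed between 0.71 and 0.87 in every alternative. In RKO, SEMA3C values of 51.8, 48.6, 35.0 and 45.7 CPM in non-LRCs and 43.0, 39.2, 51.4 and 54.6 CPM in LRCs overlapped, with a log2 fold change of 0.03 (SE 0.12).

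SEMA3F was higher in RKO LRCs, at 14.7, 17.9, 15.2 and 16.2 CPM, than in RKO non-LRCs, at 10.7, 12.1, 12.2 and 10.7 CPM. The populations did not overlap, and the log2 fold change was 0.47 (SE 0.11), which was called. SEMA3A did not differ to that degree in RKO, with 155, 158, 114 and 138 CPM in non-LRCs, 149, 165, 154 and 171 CPM in LRCs and a log2 fold change of 0.15 (SE 0.09). In DLD1 LRCs, SEMA3A was at 32.5, 33.9, 40.1 and 41.5 CPM, above every non-LRC library (28.7, 31.4, 30.9 and 31.0 CPM), with a log2 fold change of 0.29 (SE 0.09) that was called. Without replicate 1, 3 or 4 it was not called, and its value lay between 0.24 and 0.34.

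The 3 ligands lay in opposite directions in the CCS3 lines. In HCT15, SEMA3A was at 16.8, 18.2, 20.5 and 23.8 CPM in non-LRCs and at 8.66, 12.2, 13.1 and 17.6 CPM in LRCs. SEMA3C there was at 16.7, 13.9, 23.4 and 31.5 CPM in non-LRCs and 8.75, 9.64, 18.8 and 23.1 CPM in LRCs, and SEMA3F at 42.7, 29.9, 73.4 and 69.1 CPM and 24, 21.9, 55.1 and 57.8 CPM. The ranges of the populations overlapped for each of the 3 ligands, yet every HCT15 LRC library lay below the non-LRC library of its number. In DLD1, every LRC library lay above the non-LRC library of its number for all 3. The HCT15 log2 fold changes were -0.61 (SE 0.19) for SEMA3A, -0.49 (SE 0.33) for SEMA3C and -0.43 (SE 0.36) for SEMA3F, and none of the 9 genes was called in HCT15, where 0.977% of 14017 genes were called. At an unadjusted p under 0.05 edgeR had 2 of the 9 in HCT15, and DESeq2 called 0. The DLD1 values for SEMA3C and SEMA3F were 0.32 (SE 0.11) and 0.31 (SE 0.15), not called.

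Libraries with the same number deviated together in HT55, SW48, DLD1 and HCT15, and a fit with the replicate number as a block changed calls in 3 of these. In HCT15, 6 of the 9 genes were then called, beside 21.3% of all genes tested. SEMA3A (-0.64, SE 0.10), SEMA3C (-0.53, SE 0.10), SEMA3F (-0.47, SE 0.08), PLXNB1 (-0.43, SE 0.09) and PLXNA1 (-0.22, SE 0.06) were lower in LRCs on the log2 scale, and NRP1 was higher (0.35, SE 0.08). In DLD1, 5 genes were called with the block, beside 33.8% of all genes, namely NRP1, SEMA3A, SEMA3C, SEMA3F and PLXNB1, all higher, with log2 fold changes from 0.28 to 0.49. In SW48, 4 genes were called with the block, beside 9.69% of all genes: SEMA3C (0.78) and PLXNA2 (1.13) higher, SEMA3A (-0.50) and PLXND1 (-0.22) lower. NRP1 was thus higher in LRCs of both CCS3 lines with the block, while the 3 ligands and PLXNB1 were higher in one and lower in the other.

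**Figure D3:**
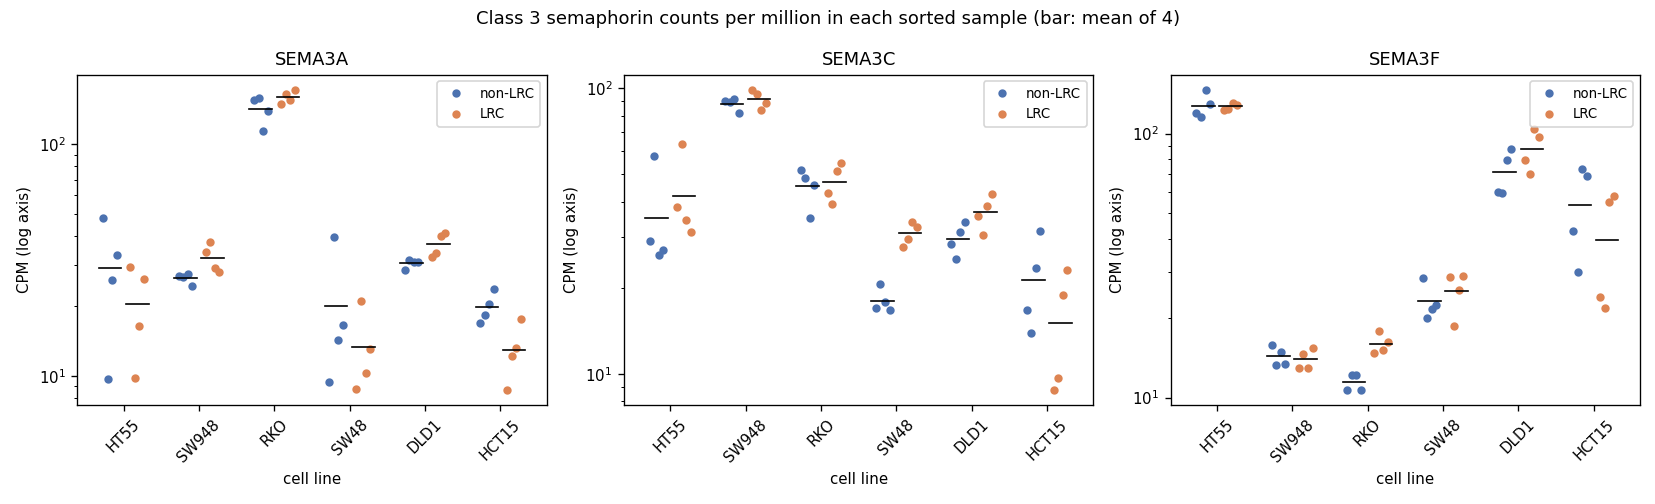
SEMA3A, SEMA3C and SEMA3F in each of the 48 sorted libraries, in CPM on log axes, with bars for the mean of 4 replicates. In DLD1 the LRC means lie above the non-LRC means for all 3 genes, in HCT15 below them, and SEMA3C in SW48 lies at 16.7 to 20.6 CPM in non-LRCs and 27.8 to 34.0 CPM in LRCs.

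Of the plexins, PLXNA2 was higher in LRCs of both CCS2 lines. In RKO it was at 6.52, 6.43, 5.68 and 4.99 CPM in non-LRCs and 12, 8.82, 12.8 and 11.7 CPM in LRCs, without overlap (log2 fold change 0.91, SE 0.14, called). In SW48 it was at 2.05, 1.15, 1.85 and 1.87 CPM in non-LRCs and 4.15, 2.53, 4.14 and 4.36 CPM in LRCs, also without overlap, from 17 to 62 reads per library (1.13, SE 0.24, not called, but called with the block, by DESeq2, without the filter on low counts, without replicate 2 and in 1 fit of all 48 sorted libraries). Both lines had low PLXNA2 beside the other 4, in which log2 fold changes ran from -0.22 to 0.05 and the populations overlapped.

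PLXNB1 was at 27.2, 24.4, 29.7 and 26.5 CPM in RKO non-LRCs and at 42.4, 32.5, 30.7 and 37.1 CPM in LRCs, where replicate 3 lay close to the highest non-LRC library (log2 fold change 0.38, SE 0.10, called). In DLD1 it went from 48.5, 56.9, 53.5 and 51 CPM to 61.5, 66.7, 60.1 and 63.8 CPM, without overlap (0.28, SE 0.06, called). The RKO call was lost without replicate 4, when the value was 0.30, and the DLD1 call without replicate 1, 3 or 4, with values between 0.25 and 0.30. In HCT15 it went the other way, from 61, 63.5, 77.5 and 74.3 CPM in non-LRCs to 51.5, 35.6, 53.3 and 65.6 CPM in LRCs (-0.41, SE 0.16, not called without the block). PLXNB1 in SW948 LRCs spread from 92.4 to 178 CPM, against 142 to 183 CPM in non-LRCs, with replicate 1 the lowest.

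PLXNA1 was called in RKO, at 158, 152, 121 and 126 CPM in non-LRCs and 182, 153, 191 and 165 CPM in LRCs (log2 fold change 0.29, SE 0.09). The ranges overlapped, and the call was lost without replicate 3, when the value was 0.18, and without replicate 4. PLXND1 was called in none of the 6 lines. Its log2 fold changes lay between -0.22 and 0.11, and in SW48 its LRC libraries, at 104, 94.1, 101 and 98.8 CPM, all lay below the non-LRC libraries, at 115, 113, 114 and 121 CPM.

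By line, then, 6 of the 9 genes were called in RKO and 3 in DLD1, all higher in LRCs. In RKO, 41.5% of the 12731 genes tested were called, and 20.4% were called and higher in LRCs. In DLD1, 14.6% of the 13592 genes tested were called, and 6.67% were called and higher. No gene of the 9 was called in HT55 or in SW948, where edgeR called 0.0% of 13391 and 0.0% of 13674 genes. At an unadjusted p under 0.05 edgeR had 1005 genes in HT55 and 2350 in SW948, and DESeq2 called 37 and 244. Of the 9 genes, edgeR had 0 in HT55 and 2 in SW948 at that unadjusted p, and DESeq2 called 0 and 1. The median log2 fold change of the 9 genes was 0.38 in RKO, 0.28 in DLD1, -0.06 in HT55, -0.02 in SW948 and -0.21 in HCT15, and that of the 8 genes tested in SW48 was 0.17, beside medians of all genes tested between -0.01 and 0.02. Of 6 proliferation markers, 4 were called lower in RKO (median log2 fold change of the 6, -0.58) and 4 in DLD1 (-0.55). In SW48 the median was nearly as low, at -0.49, and in HCT15 it was 0.22. In these 2 lines neither edgeR nor DESeq2 called any of the 6, and edgeR had 1 and 0 at an unadjusted p under 0.05. In HT55 and SW948, where edgeR called no gene, the medians of the 6 were 0.05 and -0.0008.

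**Figure D4:**
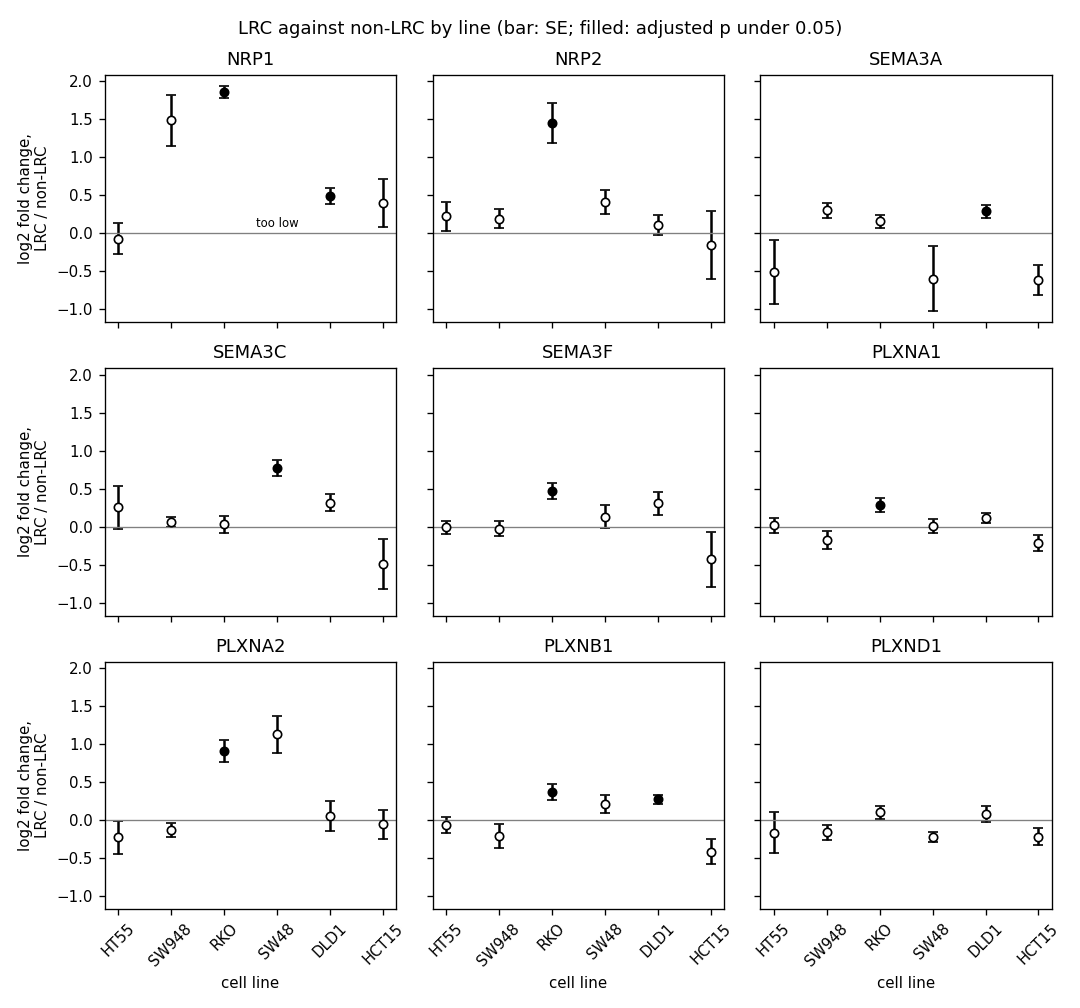
Log2 fold change of LRCs over non-LRCs for each of the 9 genes in each line, with bars for the SE and filled points where the gene was called. RKO holds 6 filled points, all above 0, and HCT15 lies below 0 for every gene but NRP1.

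Whether the LRC difference itself was unlike between lines was examined with an interaction term over the 48 sorted libraries. Of the 9 genes, 3 were called, NRP1, PLXNA2 and PLXNB1, in a test in which 14.3% of 16603 genes were called. With the replicate block 8 of the 9 genes were called, PLXND1 being the exception, beside 33.6% of all genes. The line differences in these genes can therefore be read from the values above only as a description, as the genes were chosen with them known.

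In the unsorted controls, where no cells were selected by their dye, several of the same genes moved with time in culture. These comparisons share libraries with each other. NRP1 was at 22.9, 23.2, 38.8 and 36.1 CPM in CFSE-labeled cells on d1 and at 133, 145, 80.8 and 77.0 CPM on d5. Replicates 1 and 2 were the lowest on d1 and the highest on d5, and the groups did not overlap (log2 fold change 1.81, SE 0.24, called). Unlabeled cells were at 39.5, 39.9, 39.3 and 52.4 CPM on d1 and at 59.4, 87.8, 53.4 and 49.6 CPM on d5, where the fourth library of d1 fell within the d5 range (0.54, SE 0.23, not called).

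SEMA3A rose with time with and without the dye. In CFSE-labeled cells it went from 4.47, 4.44, 4.94 and 5.94 CPM to 12.2, 13.9, 16.8 and 18.8 CPM (log2 fold change 1.60, SE 0.22). In unlabeled cells it went from 11.3, 13.4, 13.2 and 19.8 CPM to 32.7, 26.0, 22.0 and 17.0 CPM (0.75, SE 0.21), where the d1 library of 19.8 CPM overlapped the d5 group and the call was lost without replicate 1, 2 or 3 (values from 0.45 to 1.08). On d1 the CFSE-labeled libraries all lay below the unlabeled ones (-1.51, SE 0.22, called).

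SEMA3C and SEMA3F showed how much the library labeled unlabeled d1 replicate 4 weighs. SEMA3C was at 2.99, 2.06, 2.28 and 20.1 CPM on d1 and 23.9, 12, 21.8 and 17.6 CPM on d5 in unlabeled cells, and SEMA3F at 8.21, 8.10, 6.49 and 39.3 CPM and at 43.8, 33.8, 44.4 and 46.4 CPM. In each case the last d1 library lay among the d5 libraries. The log2 fold changes with time were 1.44 (SE 0.56, not called) for SEMA3C and 1.43 (SE 0.47, called) for SEMA3F, and without that library they were 2.87 (SE 0.34) and 2.40 (SE 0.31), both called. The SEMA3F call was lost without replicate 1, 2 or 3. In CFSE-labeled cells, SEMA3C went from 2.43, 3.02, 1.49 and 1.75 CPM to 5.11, 4.41, 8.67 and 10.5 CPM (1.69, SE 0.61, called, but not without replicate 1, 2 or 3, with values from 1.35 to 1.99), while SEMA3F went from 10.7, 9.71, 5.39 and 5.60 CPM to 8.92, 6.99, 16.1 and 18.0 CPM, rising only in replicates 3 and 4 (0.64, SE 0.48, not called). On d5, SEMA3F was lower with the dye than without (-1.75, SE 0.48, called, but not without replicate 1, 2 or 3, with values from -1.93 to -1.62), and no CFSE-labeled library reached an unlabeled one.

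PLXNB1 fell with time in both arms. Unlabeled cells went from 102, 100, 83.8 and 58.3 CPM to 27.8, 32.3, 43.7 and 63.6 CPM (log2 fold change -1.04, SE 0.25, called), where the last library of each group overlapped the other group. CFSE-labeled cells went from 60.3, 42.9, 76.2 and 67.9 CPM to 29.2, 28.6, 45.2 and 37.2 CPM (-0.85, SE 0.25, called). The first of these calls was lost without replicate 1, 2 or 3 (values from -1.46 to -0.83) and the second without replicate 1. NRP2 was higher with the dye on d1, at 9.78, 9.96, 3.38 and 4.53 CPM against 3.36, 2.12, 2.86 and 2.86 CPM (1.33, SE 0.30, called), with replicates 1 and 2 far above the others, and it was lower again on d5 (-1.34, SE 0.31, called). PLXND1 was lower with the dye on d1 (-0.67, SE 0.15, called). Both of the d1 dye calls, of NRP2 (values from 0.999 to 1.54) and of PLXND1 (from -0.80 to -0.53), were lost without replicate 1 or 2. PLXNA1 and PLXNA2 were called in none of the control comparisons.

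In all, 3 of the 9 genes were called with time in unlabeled cells, where 25.5% of the 14518 genes tested were called, and 5 of 9 in CFSE-labeled cells, where 39.3% were. With the dye, 3 of 9 were called on d1, where 21.8% of genes were, and 1 of 9 on d5, where 5.13% were. Without the library in doubt these counts were 5, 5, 3 and 4, beside 42.1%, 43.7%, 18.0% and 13.3% of the 14450 genes then tested. The calls gained were SEMA3C (above) and PLXND1 (-0.44, SE 0.16, against -0.35 with the library) with time in unlabeled cells, and, with the dye on d5, NRP1 (0.80, SE 0.23, against 0.79), SEMA3A (-0.66, SE 0.19, against -0.67) and SEMA3C (-1.39, SE 0.28, against -1.40). No call of the 9 genes was lost without it. Of the genes called in sorted LRCs of DLD1, NRP1 and SEMA3A were higher also with time in the CFSE-labeled controls, and PLXNB1 was lower there, but the controls resembled HCT15 more than DLD1. What part of the LRC values came from dye or time was not tested.

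**Figure D5:**
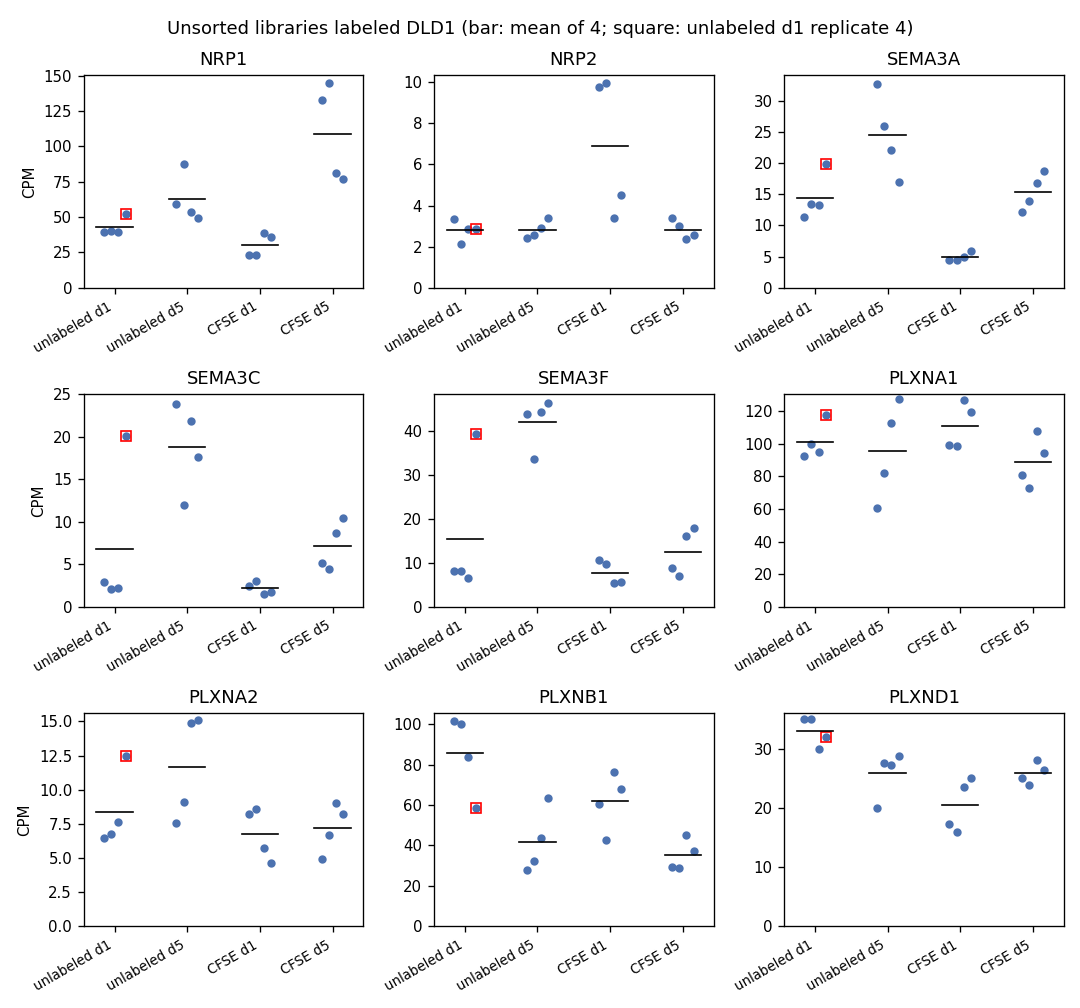
CPM of the 9 genes in the 16 unsorted control libraries labeled DLD1, by dye and day label, with bars for the mean of 4 and a red square around unlabeled d1 replicate 4. For SEMA3C and SEMA3F that library, at 20.1 and 39.3 CPM, lies with the d5 libraries and away from the other unlabeled d1 libraries, at 2.06 to 2.99 and 6.49 to 8.21 CPM.

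The other semaphorins, taken from lists of the family, were tested in the same fits. Across the 6 lines, 3 of the 12 membrane-bound semaphorins tested rose in LRCs and none fell, a share near the 22.9% of all genes called in either direction. They were SEMA5A (log2 fold change 0.43, SE 0.15, adjusted p = 0.0326), SEMA6A (0.60, SE 0.22, adjusted p = 0.0402) and SEMA6C (0.36, SE 0.10, adjusted p = 0.00868). SEMA5A and SEMA6A are known as ligands of class B and class A plexins. SEMA5A was too low to be tested in RKO and SW48, and SEMA6A in SW948, RKO and SW48. The LRC difference was unlike between lines for SEMA6A (edgeR interaction test, adjusted p = 0.00994) and SEMA6C (adjusted p = 0.0145), and was not called so for SEMA5A. The median of the 12 was 0.07, beside 0.01 for all genes. Of the 4 other class 3 semaphorins, 3 were tested and none was called by edgeR, with 0 at an unadjusted p under 0.05 and 0 called by DESeq2.

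Single lines differed in direction for these genes, which are named by line after their values were seen. In DLD1, 14.6% of genes were called, and 6.67% were called and higher. SEMA5A (log2 fold change 0.78), SEMA6A (0.84) and SEMA6C (0.86) were called higher there among 11 membrane-bound semaphorins tested. So were both other class 3 semaphorins tested, SEMA3B (0.41, SE 0.09) and SEMA3G (0.49, SE 0.13). In HCT15 the values of the same 5 genes were -0.43, -0.27, -0.20, -0.16 and -0.27, and none was called by edgeR (0 at an unadjusted p under 0.05) or by DESeq2. In RKO, 41.5% of genes were called, and 20.4% were called and higher. There 4 of 8 membrane-bound semaphorins were called higher, SEMA6C (0.89) among them. SEMA7A, which is held at the membrane by a lipid anchor, was called lower (-0.52, SE 0.07), as was the class 3 ligand SEMA3D (-0.30, SE 0.08).

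Of the other plexins, 1 of 4 tested across the lines rose and none fell, beside 22.9% of all genes called in either direction. It was PLXNA3, a semaphorin receptor related to PLXNA1 (log2 fold change 0.18, SE 0.07, adjusted p = 0.0476). Its LRC difference was unlike between lines (edgeR interaction test, adjusted p = 0.00271). In RKO, where 41.5% of genes were called and 20.4% were called and higher, 3 of 4 rose. They were PLXNA3 (0.69, SE 0.08), PLXNB2 (0.79, SE 0.10) and PLXNB3 (1.83, SE 0.26). The same 3 were called higher in DLD1 (0.51, 0.17 and 0.44), where 14.6% were called and 6.67% were called and higher. In HCT15 they were at -0.17, -0.33 and -0.03, not called. PLXNB2 and PLXNB3 are named here after their values were seen.

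Genes that work with the receptors were examined too, in the comparison across lines in which 22.9% of all genes were called. The shares called among partners, mediators, convertases and hedgehog genes were near that background and are read as descriptions. Among 7 tested partners, NRCAM, a cell adhesion molecule that binds NRP2 in axons (log2 fold change 0.85, SE 0.31, adjusted p = 0.0396), and MET, the hepatocyte growth factor receptor that can couple to class B plexins (0.24, SE 0.05, adjusted p = 4.17e-04), rose across the lines, and none fell. Of 20 tested mediators of the signal, 4 rose and 2 fell. RND1, a small GTPase that binds plexins, rose (0.75, SE 0.14, adjusted p = 8.1e-05), CFL1, the actin-severing cofilin, fell (-0.18, SE 0.05, adjusted p = 0.00805), and ARHGEF12, an exchange factor that binds class B plexins, rose (0.13, SE 0.04, adjusted p = 0.0225). Of 4 convertases, which cut class 3 semaphorins, only PCSK5 was called (0.24, SE 0.08, adjusted p = 0.02). None of 6 tested vascular endothelial growth factors and receptors was called by edgeR, against 2 at an unadjusted p under 0.05 and 2 called by DESeq2, and the receptor KDR had at most 1 read per library. Of 9 tested hedgehog core genes, the targets PTCH1 (0.18, SE 0.05, adjusted p = 0.00809) and GLI1 (0.47, SE 0.17, adjusted p = 0.0413) rose.

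The genes whose pattern was most like that of each of the 9 were ranked by Pearson's r of log2 CPM over the 16 group means, among 16899 genes. The highest were LARP4B for NRP1 (r = 0.971), LINC01605 for NRP2 (0.96), RMDN1 for SEMA3A (0.944), ZNF792 for SEMA3C (0.974), FYN for SEMA3F (0.955), SLC25A16 for PLXNA1 (0.95), KIAA1671 for PLXNA2 (0.975), CARD10 for PLXNB1 (0.961) and RILP for PLXND1 (0.969). FYN, a kinase of the semaphorin signal, was the gene most like SEMA3F by rank correlation as well (0.956). The 16 points share libraries' depth and 6 lines, so they are not independent, and these values are descriptions.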

How the data were processed

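RNA was sequenced in 64 libraries as 50-bp single-end reads. The authors deposited raw read counts per gene for 54127 genes. The submitters' processing notes name TopHat, HTSeq, DESeq and hg19 (GRCh37), and the versions and the annotation are not given in the sources used here. Gene names came from GENCODE release 44 and a gene name table, for 39260 genes (72.5%).

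Within R 4.3.3, every comparison kept genes that reached 10 counts in 4 or more of its samples. Counts were normalized by TMM and tested with edgeR 4.0.16 (quasi-likelihood, two-sided) with Benjamini-Hochberg adjustment and a threshold of 0.05. The test across lines used 48 samples with line as a covariate, each line its own 8 samples, and the controls 4 group means. CPM used TMM library sizes, log2 CPM a prior count of 2, and level per length the summed exon length of GENCODE.

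The 9 genes, the gene lists and the tests were chosen with earlier results of these data known. Named genes were the 9, all other semaphorins and plexins called across lines, and up to 3 genes with the smallest p per list. The rule also held PTK7 and VEGFA, whose values are not given here. It further held the genes most like each of the 9, of which the first by Pearson's r is given. Results of single lines beyond that are named as seen. Promoter sequences are RefSeq's.

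Replicates were biological quadruplicates per the study's methods, but nothing says which came from separate days, so p-values measure the spread between these samples. No 2 samples were identical, and over 96 replicate pairs the smallest mean chi-square was 2.19, where 1 is sampling noise. The numbers were taken to pair samples where the deviations of all 4 same-numbered pairs correlated over 0.1, which held in HT55 (lowest r = 0.141), SW48 (0.123), DLD1 (0.151), HCT15 (0.232) and between the CFSE-labeled controls (0.12), and not in SW948 (0.0122), RKO (-0.0697) or the other control pairs. Alternatives were DESeq2 1.42.0, no filter, DESeq2's size factors, library size without TMM, the replicate block, 1 fit of all 48 samples, leaving out each replicate number and, added after seeing the data, leaving out unlabeled d1 replicate 4.

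In simulated counts with 200 genes changed by a log2 fold change of 1, edgeR recovered 100% across lines (6.10% of calls false), 99.0% in RKO (4.81%) and 77.0% with time in unlabeled cells (4.94%). The changed genes were drawn only from genes above a minimum mean count, and across lines the change was the same in every line. The recovery therefore does not cover genes with few reads, smaller changes or changes that differ between lines. At 12237225 to 20913455 reads per library, genes under about 1 CPM rest on few reads, and counting error is then a large part of their spread.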

Additional observations from a re-analysis of the deposited data

Results flagged for a closer look

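In 10 of 144 groups of 4 libraries, the highest or lowest library stood apart from the others by more than Dixon's 95% critical value, a mark that chance alone gives in about 1 group of 20. The library labeled unlabeled d1 replicate 4 was the high one for NRP1 (52.4 CPM), SEMA3C (20.1 CPM) and SEMA3F (39.3 CPM). HT55 non-LRC replicate 2 was high for NRP2 (84.0 CPM) and SEMA3C (57.8 CPM), and replicate 1 of that group was low for PLXNA1 (112 CPM). The others were low, namely SW948 LRC replicate 4 for NRP2 (9.49 CPM), SW48 LRC replicate 2 for PLXNA2 (2.53 CPM), unlabeled d5 replicate 1 for PLXND1 (19.9 CPM) and SW948 LRC replicate 1 for PLXND1 (48.5 CPM).

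The difference between LRCs and non-LRCs was unlike between the 6 lines in edgeR's interaction test for NRP1 (adjusted p = 2.14e-04), PLXNA2 (adjusted p = 0.00435) and PLXNB1 (adjusted p = 0.0178). These genes were chosen with the line differences known, so the values are a description.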

How the results depend on the processing

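Most values kept their direction. The numbers of calls depended on the settings more than the fold changes did. Across the 6 lines, 3803 genes were called, against 2243 (without 3) to 2945 (without 2) with a replicate left out, and 1 of the 9 genes was called, against 2 by DESeq2 and 2 with the replicate block. In HT55, 0 genes were called, against 37 by DESeq2, 102 without the filter, 106 in 1 fit of all 48 and 0 (without 1, 3 or 4) to 808 (without 2) with a replicate left out. In SW948, 0 genes were called, against 244 by DESeq2, 973 without the filter, 501 with the replicate block, 389 in 1 fit of all 48 and 0 (without 1, 2 or 3) to 940 (without 4) with a replicate left out, and 0 of the 9 genes were called, against 1 by DESeq2, 1 without the filter, 1 with the replicate block, 1 in 1 fit of all 48 and 0 to 1 with a replicate left out. In RKO, 5279 genes were called, against 3387 (without 4) to 4721 (without 3) with a replicate left out. In SW48, 105 genes were called, against 361 by DESeq2, 285 without the filter, 1279 with the replicate block, 486 in 1 fit of all 48 and 0 (without 3 or 4) to 497 (without 2) with a replicate left out, and 1 of the 9 genes was called, against 3 by DESeq2, 2 without the filter, 4 with the replicate block and 0 to 2 with a replicate left out. In DLD1, 1978 genes were called, against 4591 with the replicate block, 646 in 1 fit of all 48 and 581 (without 1) to 1515 (without 2) with a replicate left out, and 3 of the 9 genes were called, against 5 with the replicate block, 0 in 1 fit of all 48 and 0 to 4 with a replicate left out. In HCT15, 137 genes were called, against 531 by DESeq2, 347 without the filter, 2987 with the replicate block, 697 in 1 fit of all 48 and 0 (without 1, 2 or 3) to 27 (without 4) with a replicate left out, and 0 of the 9 genes were called, against 1 without the filter and 6 with the replicate block. With time in unlabeled controls, 3695 genes were called, against 6077 without unlabeled d1 replicate 4 and 0 (without 1, 2 or 3) to 6378 (without 4) with a replicate left out, and 3 of the 9 genes were called, against 5 without unlabeled d1 replicate 4 and 0 to 5 with a replicate left out. With time in CFSE-labeled controls, 5706 genes were called, against 2858 (without 2) to 6312 (without unlabeled d1 replicate 4) with a replicate left out, and 5 of the 9 genes were called, against 3 to 5 with a replicate left out. With the dye on d1, 3162 genes were called, against 338 (without 2) to 3384 (without 4) with a replicate left out, and 3 of the 9 genes were called, against 5 without the filter and 1 to 3 with a replicate left out. With the dye on d5, 745 genes were called, against 1521 by DESeq2, 1511 with the replicate block, 1923 without unlabeled d1 replicate 4 and 0 (without 1, 2 or 3) to 1923 (without unlabeled d1 replicate 4) with a replicate left out, and 1 of the 9 genes was called, against 3 by DESeq2, 3 without the filter, 4 without unlabeled d1 replicate 4 and 0 to 4 with a replicate left out. For the interaction of line and population, 2380 genes were called, against 5584 with the replicate block and 522 (without 1) to 2850 (without 2) with a replicate left out, and 3 of the 9 genes were called, against 6 by DESeq2, 7 without the filter, 8 with the replicate block and 1 to 4 with a replicate left out. Where the numbers did not pair samples, as in SW948, RKO and most control comparisons, the block shares only a number. Of the values of single genes that were not called, a few changed sign. With a replicate left out, the log2 fold change of SEMA3C in RKO ranged from -0.11 (without replicate 3) to 0.14, that of PLXNA1 in HT55 from -0.083 (without replicate 1) to 0.11, and that of PLXNA2 in HCT15 from -0.15 to 0.16 (without replicate 1). For the dye on d1, PLXNA2 ranged from -0.48 to 0.15 and SEMA3F from -1.35 to 0.22 (both without replicate 4), and SEMA3F was 0.028 without the library labeled unlabeled d1 replicate 4. The cause was not tested. Among called values, NRP1 across the lines and in RKO and NRP2 and PLXNA2 in RKO kept their call under all alternatives. So did NRP1, NRP2 and SEMA3A with time in CFSE-labeled controls, and SEMA3A with the dye on d1. Calls in DLD1 were lost in 1 fit of all 48 samples, where its spread was shared with other lines. That fit also ended the SEMA3F call in RKO and the SEMA3C call in SW48, and library size without TMM ended the SEMA3F call with time in unlabeled controls. NRP1 in SW948 was called by DESeq2, without the filter, with the block and in 1 fit of all 48 (log2 fold change from 1.18 to 1.82 over all alternatives). By Spearman in place of Pearson, 1 of the 9 genes, SEMA3F, kept its most alike gene. Depth limits NRP1 in SW48 and SW948, NRP2 in RKO and PLXNA2 in SW48, which rest on at most 72 reads per library.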
